A study of Mus musculus with 24 samples.

Results

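The response of EMS404 cells to TGFb in the presence of SR9011 was measured by comparing 3 RNA-seq libraries of cells given SR9011 and TGFb (SR9011+TGFb) with 3 libraries of cells given SR9011 without TGFb (SR9011). These 6 samples were taken by their labels from 24 samples in 8 groups of 3. EMS404 is a hepatic stellate cell line derived from the liver of a C57Bl6 mouse, immortalized with SV40 and expressing human TLR4, and all groups share this background. SR9011 is an agonist of REV-ERB alpha whose dose the labels do not state. Cells received SR9011 for 24 h, and the SR9011+TGFb group then had a further 24 h of SR9011 with TGFb at 10 ng/mL. The sources used here do not say whether the SR9011 group was kept for the second 24 h, so TGFb and time in culture cannot be told apart. The matching pair without the compound, 3 TGFb and 3 vehicle libraries, was set beside this comparison. Library names give DMSO for both of its groups, while the sample titles call the vehicle samples untreated. TGFb samples had TGFb at 10 ng/mL for 24 h, after a first 24 h without it. No library was shared between the pairs. Below, a response to TGFb, or a gene that TGFb raised or lowered, means a difference within a pair.

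TGFb binds a receptor kinase pair that phosphorylates SMAD2 and SMAD3, which enter the nucleus with SMAD4 and switch on genes of matrix, contraction and feedback. In the liver it is the classical signal that turns hepatic stellate cells into collagen-producing myofibroblasts. REV-ERB alpha and beta, encoded by Nr1d1 and Nr1d2, are nuclear receptors of the circadian clock that repress transcription, with Arntl, the gene of BMAL1, among their targets.

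Levels are FPKM, a fragment abundance scaled to transcript length and library size, as the authors deposited them. Fold changes are on the log2(FPKM + 1) scale, which understates changes of genes near 0, and are given with their SE. A gene was called where limma's moderated test, adjusted by Benjamini-Hochberg over the 11297 genes that reached 1 FPKM in at least 3 of 24 libraries, gave an adjusted p under 0.05. Each SE and p uses a spread pooled over all 24 libraries. The pooled residual SD was 0.116 in the 6 SR9011 samples and 0.0902 in the other 18, so this spread understates that of the SR9011 samples. Libraries summed to 548928 to 610024 FPKM in the 6 SR9011 samples and 522138 to 559906 FPKM in the TGFb and vehicle samples, and read totals are unknown. SR9011 replicate 1 stood apart, with a mean squared deviation from its group of 0.0192 log2 units squared, against 0.00378 to 0.0119 for the other 5 SR9011 samples. Hepatocyte markers summed to 0 to 0.02 FPKM in SR9011+TGFb and 0.02 to 0.07 FPKM in SR9011, with Alb and Ttr at 0 in all 6. Of the 22 stellate cell quiescence and identity genes listed, 13 were tested, Reln was at 0 in the 6 samples, and Des and Gfap stayed under the filter. In RNA from whole cultures, fewer cells of a type and less RNA per cell cannot be told apart.

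The expression of 5114 genes differed between SR9011+TGFb and SR9011 in the main fit, most of them by less than 2-fold. Of the 11297 genes, 1616 (14.3%) were higher and 3498 (31%) lower in SR9011+TGFb than in SR9011. Counts in the gene lists below are to be read beside these shares. At least 2-fold changes were far fewer, with 170 genes (1.5%) higher and 79 (0.699%) lower. The 6 samples' groups did not overlap for any of these 249, which a call with so large a change makes likely. Over all 11297 genes, the 3 SR9011+TGFb libraries all lay above the SR9011 libraries for 15.3% and all below for 32.8%. The called falls were thus more numerous than the rises and smaller, and the median over all genes was -0.06. Scaling moved this balance, since TPM gave 1882 higher and 2426 lower calls and quantile normalization 2052 and 2697. A fit of the 6 libraries alone called 3668 genes, and 3629 of them were among the 5114 above. Its limma adjusted p was 5.71e-09 for Pmepa1, 0.000187 for Ddit3 and 0.0235 for Col3a1, where the main fit gave 3.63e-23, 1.47e-08 and 0.00113. Without SR9011 replicate 1 the counts were 1452 higher and 3322 lower. In cells without SR9011, TGFb raised 2311 genes (20.5%) and lowered 3888 (34.4%), with 152 (1.35%) and 206 (1.82%) at least 2-fold. With TPM those calls were 3004 and 2885, and with quantile normalization 3068 and 3105.

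**Figure D1:**
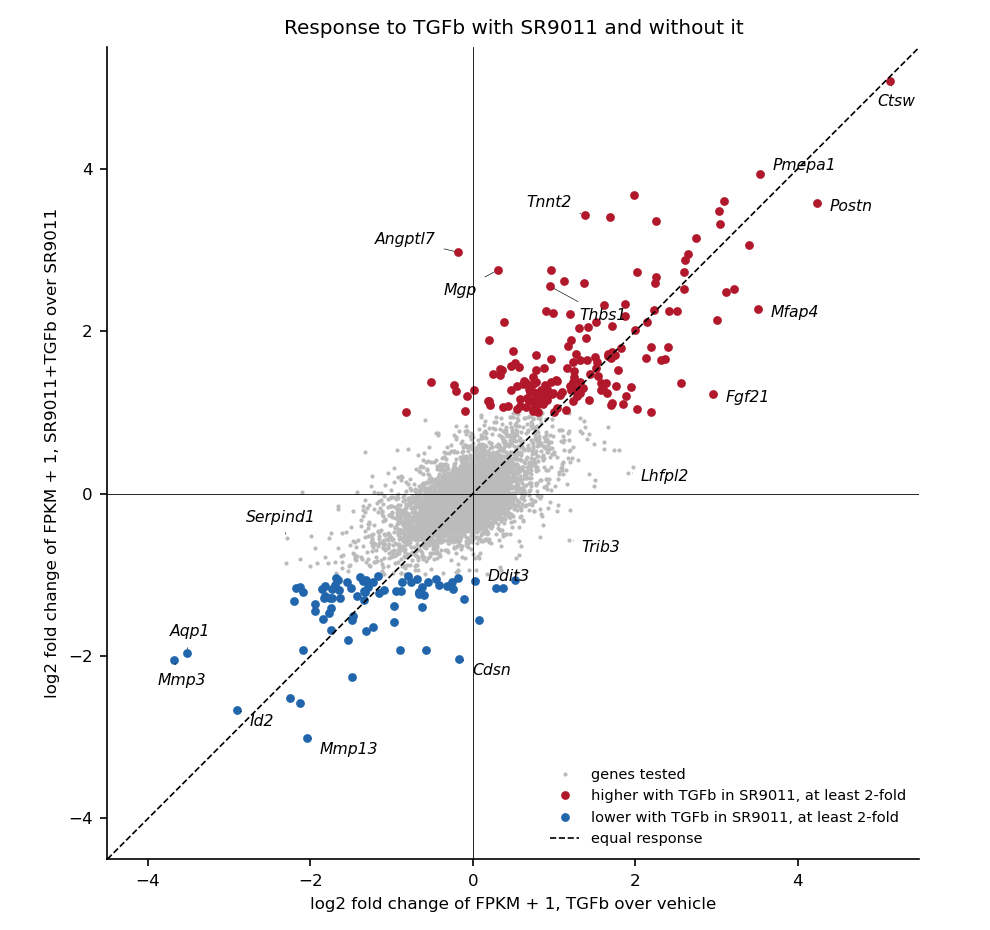
Each point is 1 of 11297 genes, with the log2 fold change of SR9011+TGFb over SR9011 on the vertical axis and that of TGFb over vehicle on the horizontal axis. The 170 red and 79 blue genes changed at least 2-fold in SR9011-treated cells. Genes above the dashed line, such as Angptl7, Tnnt2 and Thbs1, had a higher log2 fold change with SR9011 than without it, whatever their levels.

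The genes that TGFb raised most in SR9011-treated cells included feedback, protease and matrix genes of the known TGFb programme. Pmepa1 (chr2:173224458-173276533), a TGFb-induced membrane protein that binds SMADs and damps the pathway, had 94.8, 99.98 and 99.1 FPKM in SR9011+TGFb, against 5.03, 5.2 and 6.28 FPKM in SR9011. Its change was 3.93 ± 0.063 (limma, adjusted p = 3.63e-23). Ccn2, connective tissue growth factor, had 189, 135 and 183 FPKM in SR9011+TGFb, against 15.1, 10.8 and 22.4 FPKM in SR9011, and rose by 3.36 ± 0.26. Both groups scattered more for Ccn2 than for Pmepa1. The groups did not overlap for either gene, but the rule for the largest rises, which chose both, required this. Ldlrad4, another inhibitor of SMAD signalling, rose by 2.67 ± 0.08, and Skil, which encodes the SMAD corepressor SnoN, by 1.74 ± 0.088. Smad7, the inhibitory SMAD, had 7.69, 8.09 and 8.3 FPKM in SR9011+TGFb and 5.32, 5.13 and 4.57 FPKM in SR9011, a rise of 0.59 ± 0.069 (limma, adjusted p = 2.72e-07) with no overlap.

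Of the 26 tested genes in a list of TGFb-SMAD induced genes, 23 rose, 3 fell and none was left uncalled, and their median was 1.07 where that of all genes was -0.06. The 3 that fell were Bambi, a decoy receptor, with a change of -0.28 ± 0.078, Snai2 with -0.31 ± 0.076 and Lefty1 with -0.23 ± 0.062. In the cells without SR9011, 19 of the 26 rose and 1 fell, with a median of 0.58. The difference between the responses was called for 15 of them, 11 upward and 4 downward. Beside this, 16.6% of all genes had an upward and 15.3% a downward difference. Ccn2 responded more strongly with SR9011, by 1.11 (limma, adjusted p = 0.0279), and TGFb samples had 181, 166 and 176 FPKM and vehicle samples 41.1, 34.9 and 32 FPKM. This call ended without replicate 1 or 3 of SR9011+TGFb, 2 of SR9011, 2 of TGFb or 1 of vehicle, with differences of 0.87 to 1.07 and limma adjusted p of 0.0534 to 0.0738. Adam12, a metalloprotease of activated stellate cells that was singled out after its values were seen, averaged 12.9 ± 0.953 FPKM in SR9011+TGFb and 2.76 ± 0.745 FPKM in SR9011 (SD, n = 3 each). It averaged 24.9 ± 0.379 FPKM with TGFb and 21.5 ± 0.763 FPKM with vehicle, so it rose by 1.90 ± 0.097 with SR9011, while its change of 0.20 without it did not pass the test.

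Among the ligands, receptors and latency proteins of the pathway, latency proteins had the largest changes. Ltbp1, which tethers latent TGFb to the matrix, had 33.7, 29.9 and 33.6 FPKM in SR9011+TGFb, against 8.74, 8.97 and 10.3 FPKM in SR9011, and rose by 1.69 ± 0.072. Its relative Ltbp2 rose by 1.72 ± 0.078 and Fstl3, a secreted activin antagonist, by 1.52 ± 0.084. The receptors changed little: Tgfbr1 had 10.8, 10.6 and 10.2 FPKM in SR9011+TGFb and 7.39, 11.3 and 10.5 FPKM in SR9011, and Tgfbr2 had 27.6, 27.5 and 26.8 FPKM and 24.8, 27.6 and 24.8 FPKM in the same groups. Neither receptor nor the ligand gene Tgfb1, at 43.7, 46.6 and 45.6 FPKM in SR9011+TGFb and 49.6, 45.4 and 46.6 FPKM in SR9011, passed the test, and the groups overlapped for all 3. Tgfb3, by contrast, rose by 0.47 ± 0.074 with SR9011 and had a change of -0.67 without it, a difference of 1.15 (limma, adjusted p = 3.86e-08). Over the whole list of 19 tested genes, 9 rose and 3 fell.

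**Figure D2:**
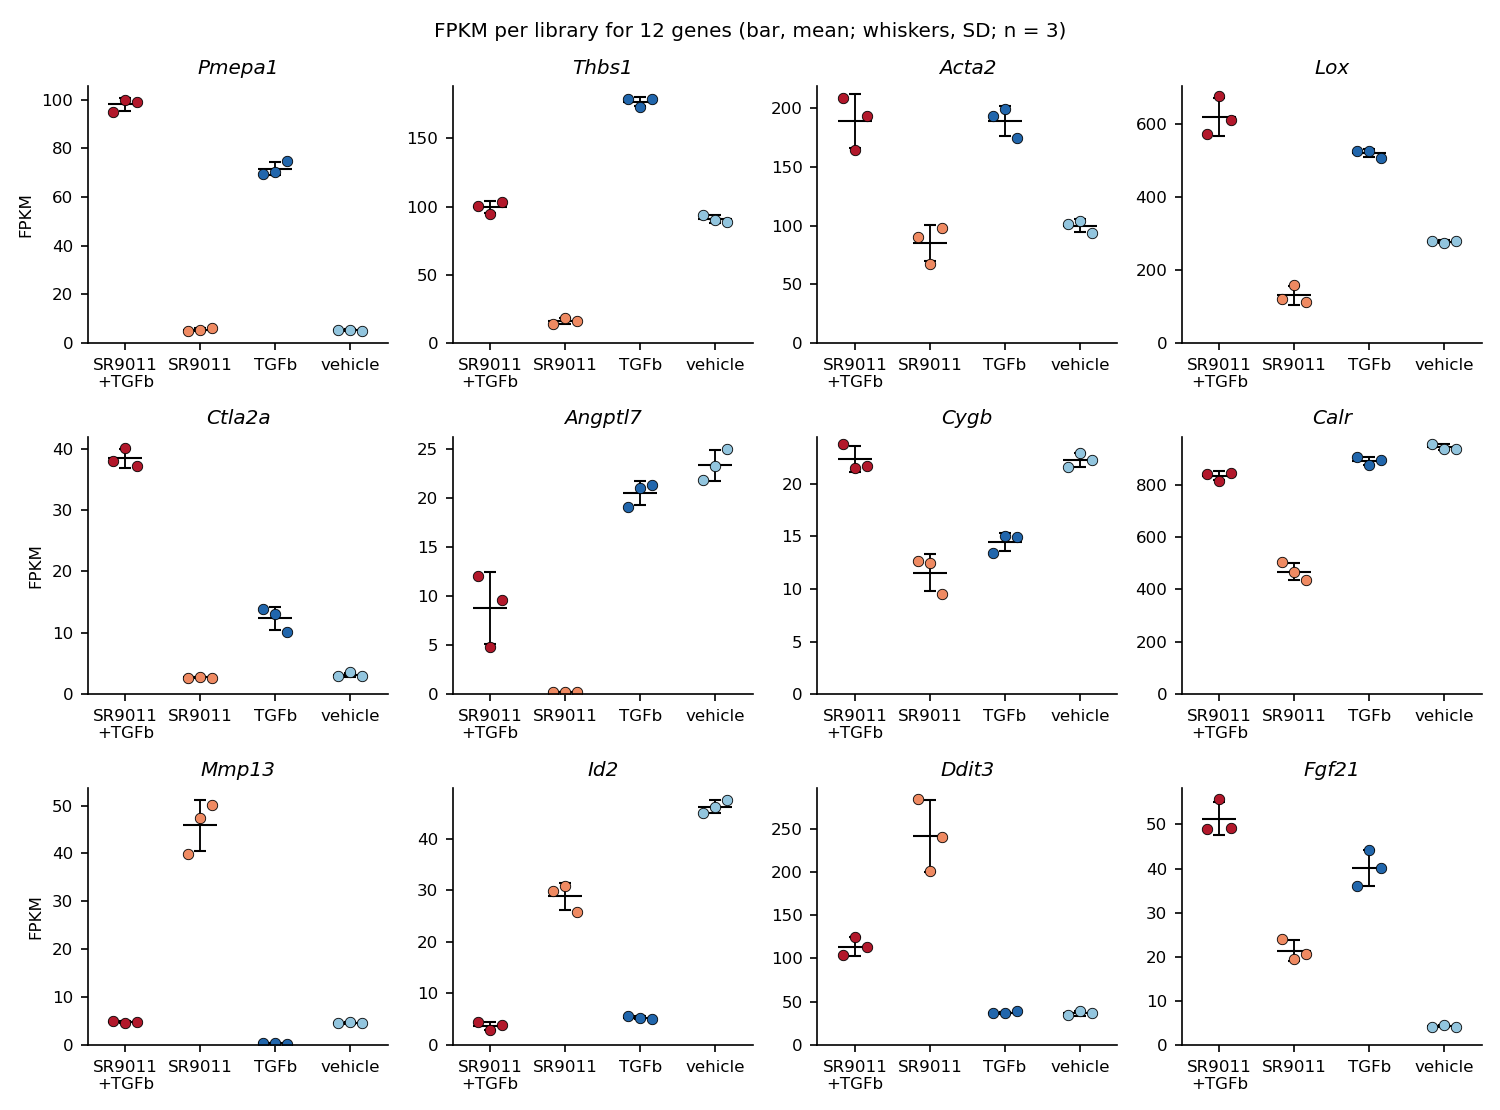
FPKM of 12 genes in each library, with the mean and SD of each group of 3. The groups SR9011+TGFb and SR9011 do not overlap in any of the 12 panels, which the rule for the largest rises and falls required of some. The panels of Thbs1, Lox, Angptl7 and Calr show SR9011 samples below the vehicle samples.

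Some of the strongest responders were genes that were nearly silent in SR9011-treated cells. Ctsw (chr19:5465043-5468507), a cathepsin best known from cytotoxic lymphocytes, had 32.6, 34 and 37.5 FPKM in SR9011+TGFb, against 0.11, 0 and 0.06 FPKM in SR9011. This was the largest rise of the comparison at 5.08 ± 0.076, and without SR9011 it was 5.14. Crispld2, a secreted protein, had 7.95, 7.3 and 7.79 FPKM in SR9011+TGFb, against 0.02, 0.03 and 0.06 FPKM in SR9011, and rose by 3.07 ± 0.052. Postn, the matricellular protein periostin, had 16, 10.8 and 14.2 FPKM in SR9011+TGFb, against 0.27, 0.2 and 0.17 FPKM in SR9011, and rose by 3.58 ± 0.098. Each of these genes stayed under 1 FPKM in every SR9011 library and above 7 FPKM in every SR9011+TGFb library. Tnnt2, the cardiac troponin T, had 11.9, 11 and 13.1 FPKM in SR9011+TGFb, against 0.34, 0.15 and 0.13 FPKM in SR9011, and Krt14, a keratin of basal epithelia, had 58.4, 75.8 and 61.5 FPKM against 7.55, 6.45 and 5.43 FPKM. Kif26b, an unconventional kinesin, rose by 3.48 ± 0.064 and Ptprb, a receptor phosphatase, by 2.95 ± 0.075. Ctsw overlaps Fibp, and whether reads were counted by strand is not stated. Fibp itself fell by 0.31 ± 0.05.

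Ctla2a, a cysteine protease inhibitor, stood out because TGFb raised it to 38.1, 40.0 and 37.1 FPKM in SR9011+TGFb, against 2.6, 2.82 and 2.69 FPKM in SR9011. The TGFb samples had 13.8, 13 and 10.2 FPKM and the vehicle samples 2.94, 3.52 and 2.91 FPKM, so the starting levels were close and the end levels far apart. The rise of 3.41 ± 0.11 exceeded that without SR9011 by 1.73 (limma, adjusted p = 3.86e-08). Its close paralog Ctla2b also rose, by 2.22 ± 0.089, and reads that fit both genes could be split between them, so their separate values are uncertain.

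Promoter windows of 4 genes are shown because they cover the main patterns of the comparison, namely Ctla2a (a rise larger with SR9011), Crispld2 (silent without TGFb), Fgf21 (a rise smaller with SR9011) and Mmp13 (the largest fall). The sequences are from RefSeq on GRCm38.p6 and run 5′ to 3′ on the gene's strand, from 250 bases before the start to 50 after it. Capitals mark matches, on either strand, to the CAGA box CAGACA that SMAD3 binds, the AP-1 site TGANTCA, the E-box CACGTG and the ATF4 element TGATGCAA.
Ctla2a, chr13:60936576-60936875, minus strand: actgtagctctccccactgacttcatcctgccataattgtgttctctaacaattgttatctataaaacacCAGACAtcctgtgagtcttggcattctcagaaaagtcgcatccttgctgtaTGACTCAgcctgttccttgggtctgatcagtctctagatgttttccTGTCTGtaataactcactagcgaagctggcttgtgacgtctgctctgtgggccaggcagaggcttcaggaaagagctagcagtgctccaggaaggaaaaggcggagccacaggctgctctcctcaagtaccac
Crispld2, chr8:119992188-119992487, plus strand: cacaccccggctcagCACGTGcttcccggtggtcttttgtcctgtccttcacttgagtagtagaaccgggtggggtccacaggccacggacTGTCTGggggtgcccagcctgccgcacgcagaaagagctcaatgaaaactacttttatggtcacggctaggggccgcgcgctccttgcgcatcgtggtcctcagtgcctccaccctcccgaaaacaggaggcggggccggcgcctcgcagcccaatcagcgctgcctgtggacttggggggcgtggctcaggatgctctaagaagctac
Fgf21, chr7:45615441-45615740, minus strand: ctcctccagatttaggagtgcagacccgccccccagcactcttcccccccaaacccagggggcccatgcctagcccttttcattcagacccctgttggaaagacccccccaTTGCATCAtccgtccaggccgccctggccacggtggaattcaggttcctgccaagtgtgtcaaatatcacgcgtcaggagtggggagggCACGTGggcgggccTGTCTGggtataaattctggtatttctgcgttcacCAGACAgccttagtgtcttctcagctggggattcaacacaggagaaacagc
Mmp13, chr9:7272264-7272563, plus strand: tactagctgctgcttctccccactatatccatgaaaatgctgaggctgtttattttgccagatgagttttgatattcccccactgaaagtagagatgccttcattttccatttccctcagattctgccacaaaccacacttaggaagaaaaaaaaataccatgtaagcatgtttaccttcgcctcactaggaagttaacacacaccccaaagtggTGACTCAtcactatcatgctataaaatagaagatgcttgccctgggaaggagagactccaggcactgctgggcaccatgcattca
Ctla2a has 2 RefSeq windows, of which the first is shown. It holds 2 CAGA boxes, 180 and 83 bases before the start, with an AP-1 site between them at 129 bases. In the second window the same sites lie 239, 142 and 188 bases before its start. Crispld2 holds 1 CAGA box 159 bases before the start and an E-box at 235 bases. Fgf21 holds CAGA boxes 36 and 1 bases before the start, an E-box at 50 bases and an ATF4 element at 139 bases. Mmp13 holds an AP-1 site 35 bases before the start and no CAGA box in this window. Shares below count each window, so overlapping windows of 1 gene can hold the same site. RefSeq windows were found for 116 of the 170 genes that rose at least 2-fold. Of their 154 windows 29.9% held a CAGA box, against 16% of 75 windows of genes that fell at least 2-fold, 15.6% of 11511 windows of all tested genes and 21.0% of all 32851 windows. AP-1 sites were in 9.74% of the windows of risen genes and 13.3% of those of fallen genes, against 4.86% for tested genes and 7.81% for all windows. In the same order, E-boxes were in 6.49%, 10.7%, 10.1% and 7.15% of windows, and ATF4 elements in 1.95%, 1.33%, 0.582% and 0.895%. The REV-ERB/ROR site TAGGTCA, also searched, was in 0.649%, 0%, 1.81% and 2.61%. For risen genes that was 1 window. The SMAD palindrome GTCTAGAC, also searched, was in 0%, 0%, 0.243% and 0.213%. These shares describe letters in a window, and no binding was measured.

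Much of the scar matrix was higher in SR9011+TGFb than in SR9011, and the fibrillar collagens were among the most abundant genes that moved. Col1a1 (chr11:94936224-94953042), the main chain of collagen I, had 1047, 1006 and 1028 FPKM in SR9011+TGFb, against 417, 456 and 342 FPKM in SR9011, and rose by 1.35 ± 0.082 (limma, adjusted p = 3.22e-12). Its partner chain Col1a2 had 854, 807 and 825 FPKM in SR9011+TGFb, against 448, 476 and 406 FPKM in SR9011, and rose by 0.90 ± 0.059. Col3a1, collagen III, had 92.7, 80.3 and 83.4 FPKM in SR9011+TGFb, against 59.4, 72.4 and 41.5 FPKM in SR9011. The SR9011 libraries of Col3a1 were scattered, but none reached the lowest SR9011+TGFb library, and its rise was 0.59 ± 0.13 (limma, adjusted p = 0.00113). All 3 stayed below their levels without SR9011, where Col1a1 had 2230.3, 2415 and 2617 FPKM with TGFb and 1651, 1511 and 1561 FPKM with vehicle. The rise of Col1a1 was larger with SR9011 by 0.73 (limma, adjusted p = 4.98e-05), and that of Col3a1 was 0.59 ± 0.13 with and 0.59 without it.

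Of 19 tested collagen chains 13 rose and 5 fell, with a median of 0.64. Collagen VIII rose most, with Col8a2 at 50.4, 49.8 and 49.4 FPKM in SR9011+TGFb, against 4.6, 4.13 and 3.55 FPKM in SR9011, a change of 3.32 ± 0.081. Col12a1, which decorates collagen I fibrils, rose by 1.91 ± 0.10, and the collagen V chains Col5a2 and Col5a1 rose by 1.47 ± 0.048 and 1.16 ± 0.056. The chains that fell were Col18a1, Col4a6, Col4a5 and the collagen VI chains Col6a1 and Col6a2, by 0.49 to 0.79 on the log2 scale. Col4a1 and Col4a2, the common basement membrane chains, rose instead, by 1.0 ± 0.043 and 0.72 ± 0.041. Without SR9011 14 of the 19 rose and 5 fell, with a median of 0.59.

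Other matrix proteins split in a similar way, with 18 of 28 higher, 6 lower and a median of 0.47. Fn1, fibronectin, had 1002, 1029 and 1001 FPKM in SR9011+TGFb, against 542, 609.8 and 502 FPKM in SR9011, and rose by 0.88 ± 0.063. Thbs1, thrombospondin 1, which can activate latent TGFb, had 101, 94.9 and 103 FPKM in SR9011+TGFb, against 14.3, 18.4 and 16 FPKM in SR9011. Its rise of 2.55 ± 0.072 exceeded that without SR9011 by 1.60 (limma, adjusted p = 2.21e-10), from a low SR9011 level, as vehicle samples had 94.1, 89.9 and 88.7 FPKM. Vcan, the proteoglycan versican, had 14.1, 13.1 and 13.4 FPKM in SR9011+TGFb, against 0.93, 0.96 and 1.04 FPKM in SR9011. Spp1, osteopontin, had 29.7, 21.8 and 25.9 FPKM in SR9011+TGFb, against 3.57, 3.61 and 3.79 FPKM in SR9011, and rose by 2.51 ± 0.087. That is close to its change of 2.59 without SR9011, although the TGFb samples held far more, with 180.1, 142 and 162 FPKM. Eln, elastin, rose by 1.27 ± 0.16 with SR9011, and its change of -0.21 without it did not pass the test, a difference of 1.48. Mfap4, a microfibril protein, had 5.06, 3.63 and 4.54 FPKM in SR9011+TGFb, against 0.08, 0.11 and 0.14 FPKM in SR9011, and rose in both pairs. Its difference of -1.24 (limma, adjusted p = 7.97e-08) rests on the pseudocount, since with 0.1 it was -0.28 and not called, and the ratios of mean FPKM were 40.1 with SR9011 and 30.1 without it. Of the 6 proteins that fell, 3 were small leucine-rich proteoglycans, namely Ogn, Dcn and Prelp. Ogn, osteoglycin, had 0.96, 1.14 and 0.88 FPKM in SR9011+TGFb, against 5.28, 7.49 and 3.92 FPKM in SR9011. Dcn, decorin, averaged 266 ± 16.5 FPKM in SR9011+TGFb and 500.3 ± 91 FPKM in SR9011, a fall of 0.89 ± 0.10, whereas without SR9011 its change was -2.01.

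Enzymes that fold and crosslink collagen rose in part, 12 of 22 with 3 lower. Lox, lysyl oxidase, had 571, 675 and 609 FPKM in SR9011+TGFb, against 120.0, 159 and 112 FPKM in SR9011, a rise of 2.25 ± 0.12 (limma, adjusted p = 9.4e-13). The SR9011+TGFb samples of Lox lay above the TGFb samples, which had 525, 527 and 507 FPKM, and the response was larger with SR9011 by 1.35. Loxl1 rose by 0.72 ± 0.053, while Loxl4 went the other way, with 2.19, 2.45 and 2.22 FPKM in SR9011+TGFb and 6.36, 5.49 and 7.21 FPKM in SR9011. Without SR9011 Loxl4 had a small rise of 0.29, and the difference was -1.44 (limma, adjusted p = 2.8e-10). Plod2, a collagen lysyl hydroxylase, rose by 0.94 ± 0.099 and P3h1, a prolyl hydroxylase, by 0.61 ± 0.054.

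Among matrix proteases and their inhibitors, a gelatinase rose while a collagenase and a stromelysin fell. Mmp2 (chr8:92827291-92853420), gelatinase A, had 72.5, 67.8 and 70.3 FPKM in SR9011+TGFb, against 5.26, 4.31 and 5.11 FPKM in SR9011, a rise of 3.60 ± 0.056. Mmp14, which activates MMP2 at the cell surface, rose by 0.93 ± 0.041, and the inhibitors Timp3 and Timp1 by 1.80 ± 0.071 and 0.90 ± 0.069. Mmp13 (chr9:7272514-7283331), the interstitial collagenase of mice, had 5.03, 4.62 and 4.8 FPKM in SR9011+TGFb, against 40.0, 47.4 and 50.2 FPKM in SR9011. This was the largest fall of the comparison at -3.00 ± 0.10 (limma, adjusted p = 8.26e-17). Vehicle samples had 4.51, 4.74 and 4.55 FPKM, near the SR9011+TGFb samples. Mmp13 also fell without SR9011, and TGFb samples had 0.35, 0.43 and 0.31 FPKM, far below the SR9011+TGFb samples. Mmp3, stromelysin 1, had 2.82, 1.38 and 2.33 FPKM in SR9011+TGFb, against 10.5, 12.8 and 12.4 FPKM in SR9011. Its fall of 2.04 ± 0.14 was smaller than that of -3.68 without SR9011, with a difference of 1.64 (limma, adjusted p = 1.86e-06). Counted together, 9 of 20 proteases and inhibitors rose and 6 fell, the falls at a share near the 31% of all genes.

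Contractile and myofibroblast genes rose together in SR9011-treated cells, 18 of 25 with 1 lower. Acta2, smooth muscle actin and the standard marker of activated stellate cells, had 209, 164 and 194 FPKM in SR9011+TGFb, against 90.4, 67.6 and 97.6 FPKM in SR9011. It rose by 1.15 ± 0.14 (limma, adjusted p = 1.97e-06), and the TGFb and vehicle samples, at 193, 199 and 174 FPKM and 102, 104 and 93.9 FPKM, were close to these. Tagln, transgelin, averaged 67.2 ± 9.11 FPKM in SR9011+TGFb and 18.6 ± 4.82 FPKM in SR9011 and rose by 1.82 ± 0.17. Pdlim7, a linker of stress fibres, rose by 1.05 ± 0.092, Itgb5, an integrin chain, by 0.94 ± 0.056, and Palld, palladin, by 0.64 ± 0.043. The member that fell was Tpm2, a tropomyosin, with a change of -0.23 ± 0.056. The list's median was 0.36 in both pairs, where 16 of 25 rose and 3 fell without SR9011.

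Genes that mark stellate cells moved differently with SR9011 than without it. Of 13 tested members 6 rose and 4 fell in SR9011-treated cells, against 2 and 9 in the cells without the compound, and 10 had an upward difference with none downward. Cygb, cytoglobin, had 23.8, 21.5 and 21.7 FPKM in SR9011+TGFb, against 12.7, 12.5 and 9.49 FPKM in SR9011, a rise of 0.90 ± 0.094. Without SR9011 it fell, to 13.5, 15 and 15 FPKM with TGFb, against 21.6, 23 and 22.3 FPKM with vehicle, so the difference was 1.49 (limma, adjusted p = 3.31e-08). Pdgfrb, the PDGF receptor of activated stellate cells, rose by 0.99 ± 0.064 with SR9011 and by 1.18 without it. Pdgfra had 0.14 ± 0.08 with SR9011, short of the threshold, and fell by 0.97 on the log2 scale without it. The summed level of the whole list was 173.4 to 194.1 FPKM in SR9011+TGFb and 141.8 to 155.5 FPKM in SR9011, against 218.3 to 220.0 FPKM with TGFb and 283.2 to 289.6 FPKM with vehicle. Mesothelial and portal fibroblast markers summed to 153.7 to 171.2 FPKM in SR9011+TGFb and 170.3 to 258.2 FPKM in SR9011. In that list 3 of 8 rose and 2 fell, among them Gpm6a with 46.6, 43.6 and 43.3 FPKM in SR9011+TGFb and 78.7, 122 and 78.9 FPKM in SR9011. Endothelial markers summed to at most 3.48 FPKM and macrophage and leukocyte markers to at most 10.8 FPKM in the 6 samples. The part of other cell types in these results was not tested.

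Transcription factors of mesenchymal and immediate early programmes moved in both directions, with more rises than falls. Runx1 had 22.5, 21.6 and 21.6 FPKM in SR9011+TGFb, against 3.44, 4.38 and 4.89 FPKM in SR9011, a rise of 2.14 ± 0.069 that was smaller than without SR9011 by 0.87 on the log2 scale. Scx, scleraxis, a factor of tendon and other collagen-rich tissue, had 18.1, 17 and 17.2 FPKM in SR9011+TGFb, against 2.98, 2.21 and 2.83 FPKM in SR9011. Snai1 rose by 1.29 ± 0.072 and Sox4 by 1.25 ± 0.063, and over the list 10 of 17 rose and 4 fell. Of 21 immediate early and AP-1 genes 12 rose and 1, the phosphatase gene Dusp1, fell. Junb had 76.4, 76 and 72.6 FPKM in SR9011+TGFb, against 31.7, 26.8 and 27.6 FPKM in SR9011, and rose by 1.36 ± 0.065. Egr1 rose by 0.94 ± 0.071 with SR9011, and its change of 0.11 without SR9011 did not pass the test, a difference of 0.83 (limma, adjusted p = 1.86e-06). Of 19 YAP-TEAD targets 9 rose and 3 fell, led by Ccn2 and by Nt5e, the ectonucleotidase CD73, which rose by 2.52 ± 0.064. That list's median was 0.21 and fell to -0.01 without SR9011 replicate 1.

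Targets of BMP signalling, the sister branch that acts through SMAD1 and SMAD5, were mostly lower in SR9011+TGFb than in SR9011. Id2 (chr12:25093799-25097140), an inhibitor of basic helix-loop-helix factors, had 4.54, 2.93 and 3.8 FPKM in SR9011+TGFb, against 29.8, 30.8 and 25.8 FPKM in SR9011, a fall of 2.66 ± 0.11 (limma, adjusted p = 5.41e-15). Id3 had 70.9, 70.6 and 67 FPKM in SR9011+TGFb, against 299.6, 269 and 238 FPKM in SR9011, and Id1 had 48.5, 46.7 and 44 FPKM and 119.5, 107 and 90.1 FPKM in the same groups. The groups did not overlap for the 3 Id genes, which the rule for the largest falls required of Id2 and Id3. The changes of Id2 and Id3 without SR9011, -2.91 and -2.09, were near those with it. Atoh8 fell by 1.51 on the log2 scale, while Grem1, the secreted BMP antagonist gremlin, rose by 2.03 ± 0.15. Of the 16 BMP genes tested 10 fell and 4 rose, and their median was -0.36 with SR9011 and -0.85 without it. The difference was upward for 5 and downward for none.

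Growth factor genes changed in both directions, with 8 of 22 higher and 10 lower, beside 14.3% and 31% of all genes. Pdgfb, a mitogen for stellate cells, had 14.9, 15.4 and 15.3 FPKM in SR9011+TGFb, against 2.29, 2.31 and 2.62 FPKM in SR9011, and rose by 2.25 ± 0.073. Igf1 had 4.95, 4.08 and 4.54 FPKM in SR9011+TGFb, against 0.37, 0.65 and 0.44 FPKM in SR9011, and Igfbp7, a secreted IGF-binding protein, rose by 2.59 ± 0.12. Igfbp3 fell by 1.38 on the log2 scale. Among chemokines and inflammatory genes 7 of 21 rose and 6 fell, counts that came to 4 each in the fit of the 6 libraries alone. The share of falls was near that of all genes. Ptgs2, the inducible cyclooxygenase, had 19.5, 17.6 and 19.5 FPKM in SR9011+TGFb, against 4.36, 5.48 and 6.27 FPKM in SR9011. Cxcl12, which attracts CXCR4-bearing cells, had 630.3, 586 and 581 FPKM in SR9011+TGFb, against 260.2, 312 and 214 FPKM in SR9011, a rise of 1.21 ± 0.082. Without SR9011 Cxcl12 hardly differed, with 886, 881 and 822 FPKM with TGFb and 885, 927 and 900.2 FPKM with vehicle, and the difference of the responses was 1.27 (limma, adjusted p = 3.44e-08). Vcam1, an adhesion molecule, fell to 72.4, 63.6 and 67.5 FPKM in SR9011+TGFb, against 121, 134 and 122 FPKM in SR9011.

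Interferon response and antigen processing genes fell, 17 of 26 with none higher and a median of -0.36. Tap2, a peptide transporter, had 22.3, 21.8 and 22 FPKM in SR9011+TGFb, against 40.4, 35.6 and 34.9 FPKM in SR9011, a change of -0.72 ± 0.073. The immunoproteasome subunits Psmb10 and Psmb8 fell by 0.66 and 0.64 on the log2 scale. Without SR9011 the count was 23 of 26, with a median of -0.58.

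Of the lists tested, that of the integrated stress response differed most between the pairs, with a median difference of -0.86. The integrated stress response couples amino acid shortage and other stresses, through the factor ATF4, to genes of amino acid supply and to the factor CHOP. In the cells without SR9011 TGFb raised 20 of 27 tested genes of this response and lowered 1, with a median of 0.69. In SR9011-treated cells 3 rose and 11 fell, the median was -0.19, and the difference was downward for 24 of the 27 and upward for none. With TPM the count of falls was 7. Ddit3 (chr10:127290774-127296288), which encodes CHOP, had 104, 125 and 113 FPKM in SR9011+TGFb, against 284, 201 and 240.1 FPKM in SR9011, a fall of 1.07 ± 0.10 (limma, adjusted p = 1.47e-08). TGFb and vehicle samples had 36.8, 36.6 and 38.9 FPKM and 34.1, 39.7 and 36.5 FPKM, so both SR9011 groups lay above both groups without it, and the responses differed by -1.10. Trib3, a pseudokinase induced by ATF4 and CHOP, had 147, 163 and 150.4 FPKM in SR9011+TGFb, against 253, 211 and 222 FPKM in SR9011. Without SR9011 Trib3 rose, with 99.2, 108 and 107 FPKM with TGFb and 45.9, 43.3 and 47.5 FPKM with vehicle, and the responses differed by -1.75 (limma, adjusted p = 2.8e-10). Ppp1r15a, the phosphatase subunit GADD34 that ends the response, fell by 0.97 ± 0.086 on the log2 scale with SR9011 and rose by 0.53 without it. Atf4 itself averaged 487 ± 20.6 FPKM in SR9011+TGFb and 531 ± 18.4 FPKM in SR9011, a change of -0.13 ± 0.076 that did not pass, whereas it averaged 437 ± 9.55 FPKM with TGFb and 269.9 ± 12.4 FPKM with vehicle. Asns, asparagine synthetase, had a change of -0.17 ± 0.11 with SR9011 that did not pass and a rise of 0.93 without it, a difference of -1.10. The 3 genes that rose with SR9011 were Fgf21, Nupr1 and Ddit4. Fgf21, a stress-induced hormone, had 49.1, 55.7 and 49.2 FPKM in SR9011+TGFb, against 24.1, 19.6 and 20.5 FPKM in SR9011, and 36, 44.1 and 40.1 FPKM with TGFb, against 4.06, 4.58 and 4.18 FPKM with vehicle. Its rise was thus smaller with SR9011, by 1.73 on the log2 scale, while its level with SR9011 and TGFb was the higher one. The list's median level on the log2(FPKM + 1) scale was 6.94 in SR9011+TGFb and 7.08 in SR9011, and 6.72 with TGFb and 5.87 with vehicle.

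Chaperones of the endoplasmic reticulum, which fold secreted proteins such as collagen, went the other way. Of 20 tested genes 18 rose with TGFb in SR9011-treated cells and none fell, with a median of 0.40, against 9 higher, 1 lower and a median of 0.11 without SR9011. The difference was upward for 12 and downward for 1, which was Herpud1. Calr, calreticulin, had 843, 813 and 844 FPKM in SR9011+TGFb, against 503, 466 and 436 FPKM in SR9011, a rise of 0.83 ± 0.054, and the responses differed by 0.92 (limma, adjusted p = 9.74e-09). The TGFb and vehicle samples of Calr, at 906, 873 and 893 FPKM and 956, 936 and 936 FPKM, lay above all 6 SR9011 samples. The disulfide isomerases Pdia4 and Pdia3 rose by 0.69 ± 0.045 and 0.61 ± 0.044, and the chaperone Hsp90b1 by 0.60 ± 0.047.

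Targets of NRF2, the factor of the antioxidant response, fell in SR9011-treated cells. Of 22 tested genes 20 fell and none rose, with a median of -0.54, against 12 lower and 1 higher without SR9011. The difference was downward for 10 and upward for 2. Ftl1, ferritin light chain, had 3121, 3577 and 3084 FPKM in SR9011+TGFb, against 6096, 5210.1 and 5412 FPKM in SR9011. Abcc4, an efflux transporter, had 9.19, 11 and 9.77 FPKM in SR9011+TGFb, against 24.8, 27.1 and 25.8 FPKM in SR9011, a fall of 1.29 ± 0.062, and its change of -0.11 without SR9011 did not pass, a difference of -1.18. Gstm1, a glutathione transferase with close paralogs, fell in both pairs, by 1.17 with SR9011 and 1.86 without it on the log2 scale. Lysosomal and autophagy genes also fell, 16 of 22 with 1 higher, and 17 with 1 higher without SR9011. Gpnmb, a lysosomal membrane protein, had 19.6, 18 and 18.5 FPKM in SR9011+TGFb, against 45, 41.6 and 55.3 FPKM in SR9011, and TGFb and vehicle samples had less, with 0.7, 0.76 and 0.81 FPKM and 5.15, 5.9 and 4.7 FPKM. Ctsl, cathepsin L, had 557, 579.8 and 579 FPKM in SR9011+TGFb, against 909, 805 and 921 FPKM in SR9011.

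**Figure D3:**
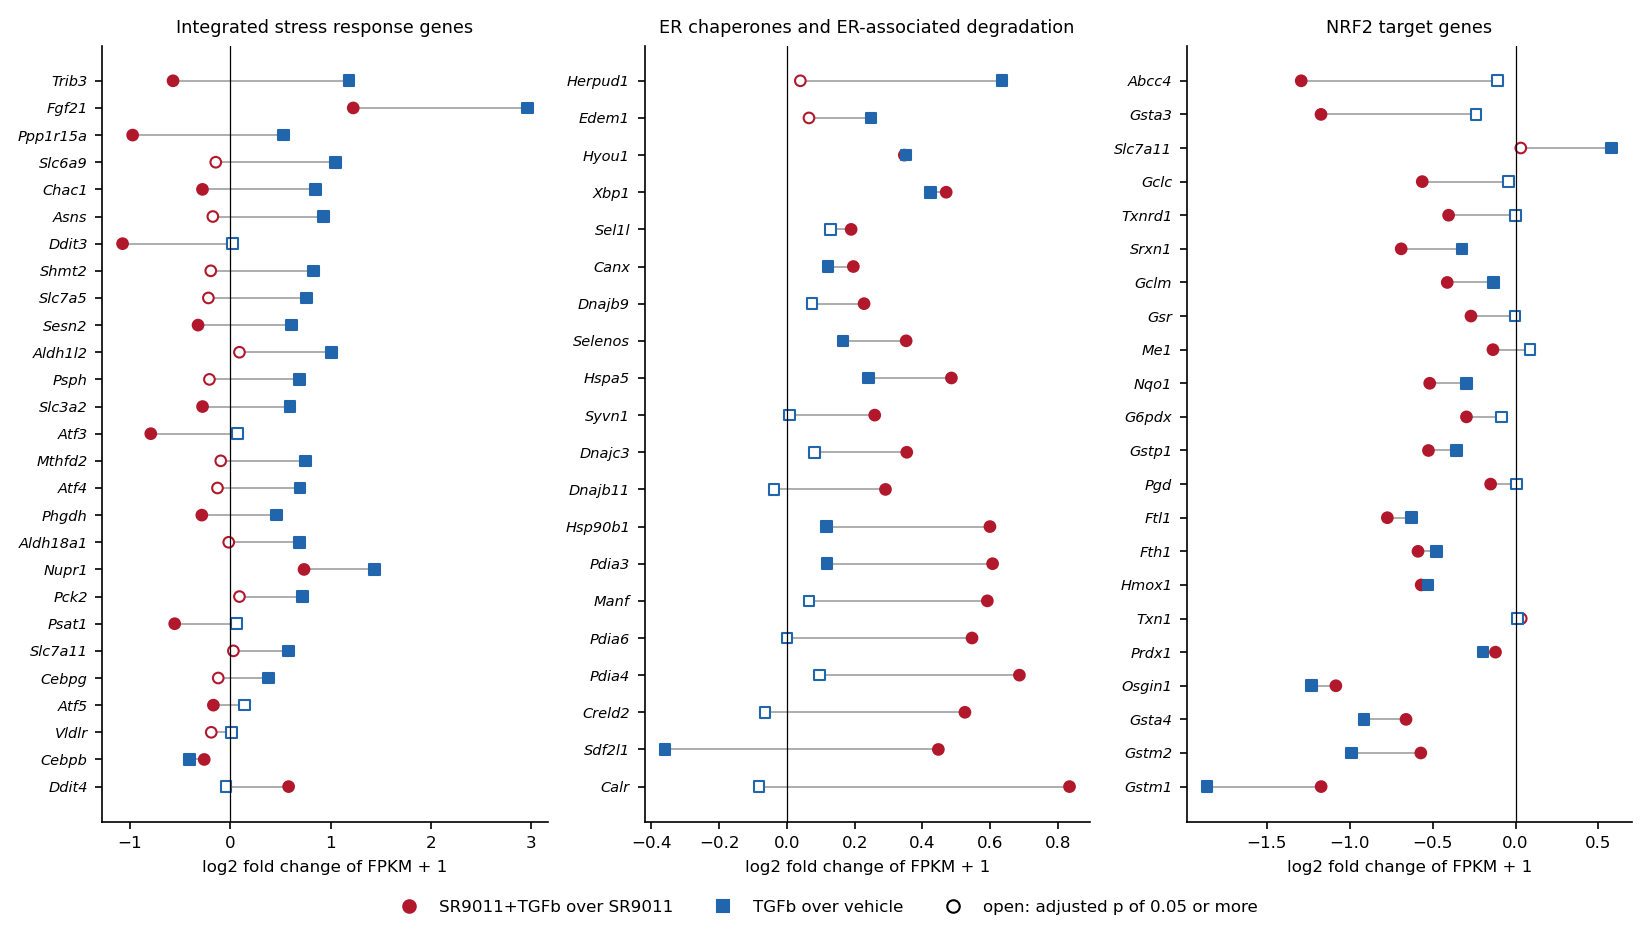
Log2 fold change of each tested member of 3 gene lists, with SR9011+TGFb over SR9011 as red circles and TGFb over vehicle as blue squares, filled where the adjusted p was under 0.05. For 24 of 27 integrated stress response genes the SR9011 circle lay lower and the difference was called, while 18 of 20 chaperone genes rose with SR9011.

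Clock genes changed moderately. Arntl, the gene of BMAL1, had 12.2, 11.1 and 12.4 FPKM in SR9011+TGFb, against 7.75, 7.39 and 8.17 FPKM in SR9011, and rose by 0.56 ± 0.051, with 0.74 without SR9011. Dbp, a clock output factor, had 3.39, 2.72 and 2.85 FPKM in SR9011+TGFb, against 9.43, 7.93 and 7.16 FPKM in SR9011, and fell by 1.20 ± 0.097 on the log2 scale. The gene of REV-ERB alpha, Nr1d1, had 4.83, 4.34 and 4.43 FPKM in SR9011+TGFb, against 6.01, 5.32 and 5.49 FPKM in SR9011. Nr1d1 thus had a small fall of 0.26 ± 0.083 (limma, adjusted p = 0.0147). Without SR9011 it rose by 0.26, and the difference was -0.51 (limma, adjusted p = 0.00193). Nr1d1 overlaps Thra on the other strand, so reads of the pair may be mixed. Nr1d2 had 15.7, 15.5 and 16 FPKM in SR9011+TGFb and 13.4, 19.7 and 20.4 FPKM in SR9011, with overlapping groups. In all, 3 of 21 clock genes rose and 9 fell, shares near or above those of all genes.

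Proliferation and metabolic lists had medians from -0.09 to 0.05 in SR9011-treated cells. Over all genes tested, 14.3% rose and 31% fell. Of 31 proliferation genes 8 rose and 9 fell, the median was 0.01, and the fit of the 6 libraries alone called 4 and 5. Ccnd1, cyclin D1, had the largest change, with 1.56, 1.17 and 1.49 FPKM in SR9011+TGFb and 4.24, 3.87 and 5.47 FPKM in SR9011. Without SR9011 20 of the 31 fell and 2 rose, and 14 had an upward difference with 1 downward. Of 25 glycolysis and hypoxia genes 1 rose and 3 fell, of 26 respiratory chain genes 1 rose and 7 fell, and of 30 cholesterol and fatty acid synthesis genes 8 rose and 2 fell. The fit of the 6 libraries alone gave 2 and 5, 0 and 2, and 4 and 1 for these lists. Among 21 p53 targets and CDK inhibitors 3 rose and 6 fell, shares near those of all genes, and Plk2 had the largest change at 1.79 ± 0.08.

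**Figure D4:**
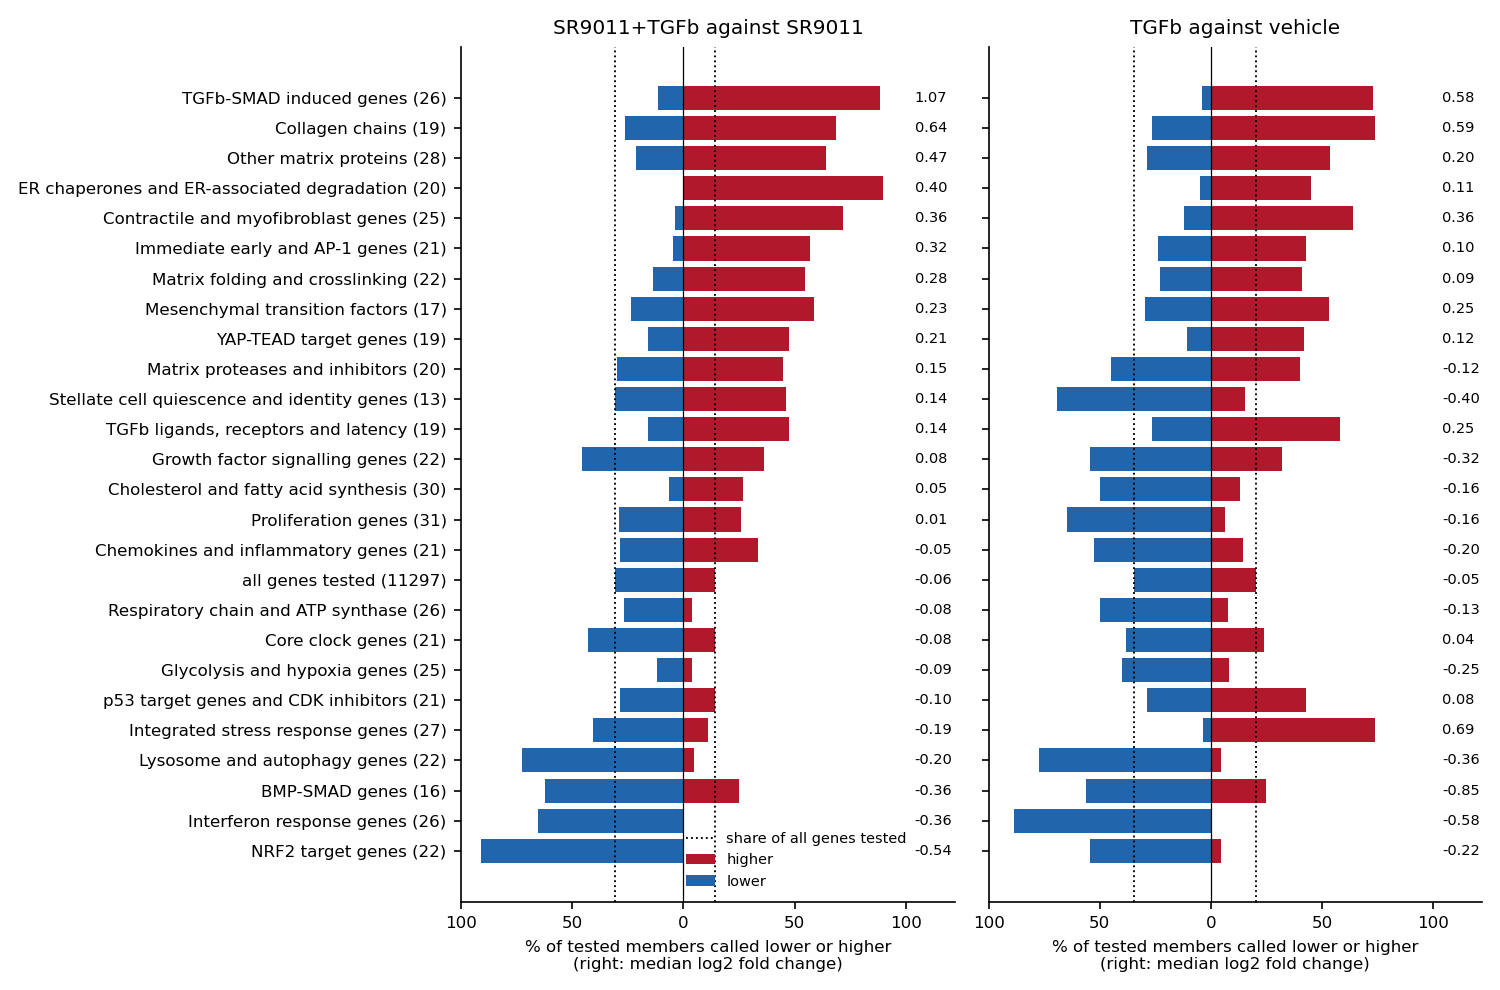
Share of tested members called higher (red, right of 0) or lower (blue, left of 0) in each gene list, for SR9011+TGFb against SR9011 on the left and TGFb against vehicle on the right, with the number tested in parentheses and the median log2 fold change at the right. Dotted lines are the shares over all 11297 genes, 14.3% higher and 31% lower on the left and 20.5% and 34.4% on the right. TGFb-SMAD induced genes lead with a median of 1.07 in SR9011-treated cells and the integrated stress response list differs most in direction, at -0.19 and 0.69.

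Outside the lists, several of the largest falls were enzymes, transporters and tissue-specific genes. Rasl11a, a Ras-like GTPase, had 29.6, 28.5 and 29.8 FPKM in SR9011+TGFb, against 202, 189 and 151 FPKM in SR9011, and fell by 2.57 ± 0.075 on the log2 scale. Aqp1, the water channel, had 0.46, 0.18 and 0.4 FPKM in SR9011+TGFb, against 4.06, 5.69 and 3.22 FPKM in SR9011, and Maoa, monoamine oxidase A, had 28.3, 27.8 and 27.6 FPKM and 86.2, 89 and 92.9 FPKM in the same groups. Aqp1 was much higher in vehicle samples, at 29, 32.2 and 32.7 FPKM. Klf15, a zinc finger factor of metabolic genes, had 7.48, 8.46 and 8.26 FPKM in SR9011+TGFb, against 27, 25.6 and 25.7 FPKM in SR9011. Prph, the neuronal filament peripherin, fell by 2.26 ± 0.19, Scara5, a ferritin receptor, by 1.92 ± 0.11, and Adhfe1, a mitochondrial alcohol dehydrogenase, by 1.92 ± 0.094 on the log2 scale. The groups of SR9011+TGFb and SR9011 did not overlap for any of these genes, but the rule that chose them required this. Serpina9 fell by 1.81 ± 0.095 and Akr1c14, an aldo-keto reductase with close paralogs, by 1.68 ± 0.12 on the same scale.

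Set against the response without SR9011, the changes ran largely in the same direction but not at the same size. Over the 358 genes that TGFb changed at least 2-fold without SR9011, the slope of the SR9011 response on the vehicle response was 0.717 ± 0.011 (SD over the 3 SR9011+TGFb libraries), and 343 had the same sign. The slope was lower for the falls. For the 206 genes that fell, the slope was 0.541 ± 0.042 and 161 had a called difference toward 0, while for the 152 that rose it was 0.872 ± 0.017 with 76 smaller and 31 larger. These 206 genes had a median level of 3.21 in SR9011 and 3.83 in vehicle on the log2(FPKM + 1) scale. It was 2.49 in SR9011+TGFb and 2.39 in TGFb. Choosing genes by a fall from vehicle favours high vehicle values. The choice thus bears on the lower SR9011 level and on the count of differences toward 0. It bears on the slope too, since the slope over the 249 genes picked in SR9011-treated cells was 0.986. Of those genes, 95 of the rises were larger and 24 smaller with SR9011 by a called difference, and 30 of the falls were larger and 22 smaller. Of the 170 genes that rose at least 2-fold with SR9011, 98 did so without it (57.6% of the first list and 64.5% of the second), and of the 79 that fell, 49 did (62% and 23.8%). A called rise with SR9011 met a called fall without it for 145 genes, and the reverse held for 224.

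The largest upward differences between the responses included genes whose level was low in SR9011-treated cells before TGFb. Angptl7, a secreted angiopoietin-like protein, had 12, 4.8 and 9.6 FPKM in SR9011+TGFb, against 0.21, 0.18 and 0.16 FPKM in SR9011, while TGFb and vehicle samples had 19.1, 21 and 21.3 FPKM and 21.8, 23.2 and 25 FPKM. Its rise of 2.97 ± 0.20 gave the largest upward difference of all genes tested, 3.15 (limma, adjusted p = 1.01e-07), and it left Angptl7 below the level without the compound. Mgp, matrix Gla protein, had 206, 92.5 and 163 FPKM in SR9011+TGFb, against 24.8, 17.6 and 20.5 FPKM in SR9011, with a difference of 2.45. In both genes replicate 2 of SR9011+TGFb was the low one. Cacna1g, a T-type calcium channel, had 20.9, 23.2 and 21.5 FPKM in SR9011+TGFb, against 2.68, 2.7 and 1.86 FPKM in SR9011, and the responses differed by 1.79. Atp1b1, a subunit of the sodium pump, had 262, 227 and 249.7 FPKM in SR9011+TGFb, against 55.2, 65 and 49.1 FPKM in SR9011, and 354, 357 and 356 FPKM with TGFb, against 282, 267 and 271 FPKM with vehicle, a difference of 1.73. Tnnt2 differed by 2.05 and ended higher with SR9011 than without it, as TGFb samples had 3.18, 3.75 and 3.31 FPKM. Nrep and Fam180a rose with SR9011, by 1.38 ± 0.15 and 1.01 ± 0.12, and fell without it, with differences of 1.89 and 1.83. Serpind1, heparin cofactor II, fell less with SR9011 than without it, by 0.55 ± 0.12 against 2.29 on the log2 scale, a difference of 1.74, and its SR9011 groups overlapped. Angptl7 lies within Mtor, Serpind1 within Pi4ka and Atp1b1 beside Nme7, so their reads may be mixed, and the values of Mtor and Nme7 were -0.14 ± 0.045 and 0.033 ± 0.048. Other named genes that overlap a second gene were Ogn (Cenpp), Ddit3 (Mars), Mfap4 (Mapk7), Cygb (Prcd), Timp1 (Syn1), Timp3 (Syn3), Ppp1r15a (Tulp2), Avil (Tsfm), Junb (Prdx2), Scx (Bop1), Igfbp7 (Polr2b), Dbp (Sphk2), Ldlrad4 (Fam210a), Fstl3 (Prss57), Pdia3 (Catsper2), Ccnd1 (LTO1), Angptl6 (A230050P20Rik), Tagln (Pcsk7), Tgfb3 (Ttll5), Dusp1 (Ergic1), Col18a1 (Slc19a1) and Col4a1 (Col4a2).

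In the other direction stood genes that were high in SR9011-treated cells and fell with TGFb, or whose rise was smaller on the log2(FPKM + 1) scale. Cdsn, corneodesmosin, had 2.91, 4.87 and 2.19 FPKM in SR9011+TGFb, against 18.5, 12.2 and 18.5 FPKM in SR9011, and stayed under 1 FPKM in TGFb and vehicle samples, with a difference of -1.87 (limma, adjusted p = 1.73e-05). Avil, advillin, and Car6, a secreted carbonic anhydrase, followed the same pattern, with differences of -1.63 and -1.54. Avil had 6.83, 15.4 and 8.34 FPKM in SR9011+TGFb and 35.5, 27.6 and 28 FPKM in SR9011, and Car6 had 16.8, 31 and 18.1 FPKM and 53, 38.2 and 57 FPKM. Both stayed under 1 FPKM in the 6 samples without SR9011. Angptl6 fell by 1.06 ± 0.11 on the log2 scale with SR9011 and rose by 0.52 without it, a difference of -1.58. Lhfpl2, a tetraspan membrane protein, rose to 17.6, 17.4 and 18.4 FPKM with TGFb, against 4.05, 3.99 and 3.91 FPKM with vehicle. With SR9011 it had 31.4, 32.8 and 29.1 FPKM in SR9011+TGFb, against 24.4, 24.7 and 28.5 FPKM in SR9011, so the difference of -1.66 came with a higher starting level. Il1rl1, the IL-33 receptor ST2, rose by 1.97 without SR9011 and by 0.32 ± 0.082 with it, where no library passed 0.33 FPKM. Its difference was -1.65 on the log2(FPKM + 1) scale, while the ratios of mean FPKM were 16.4 with SR9011 and 12.1 without it. The difference for Ppp1r15a, described with the stress genes, was -1.50.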

How the data were processed

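RNA from 24 EMS404 cultures in 8 groups of 3, described as triplicate biological samples in the series' design text, was sequenced. Per the labels' protocols, the yield decided which of 2 kits was used for the RNA, and the kit of each sample is not stated. The authors deposited FPKM values for 16620 lines in 1 table. The submitters' processing notes name HISAT2 2.0.4, Bowtie2 2.2.5, RSEM, DESeq2 and mm10. FPKM holds no read totals, so the depth is unknown and no counting interval can be given.

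The table held 16612 gene IDs. The 8 IDs that stood on 2 lines were left out, which left 16604 genes, 43 of them without a symbol. Symbols and positions are from GENCODE M21 on GRCm38. Genes with at least 1 FPKM in at least 3 of 24 libraries entered a limma fit (version 3.58.1, R 4.3.3) of log2(FPKM + 1) values (trend and robust moderation, all 8 groups in 1 fit, group means, no covariate), with Benjamini-Hochberg adjustment and a threshold of 0.05. The script was tested on simulated data. Replicate numbers were not used as pairs in the main fit, and the labels do not say whether cultures were paired. The correlations of same-numbered residuals were -0.044, -0.013 and -0.018 in SR9011+TGFb and SR9011. In TGFb and vehicle they were 0.144, 0.219 and -0.023.

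The comparison, the gene lists and the rule for named genes were chosen with earlier results of these data known. The rule takes the 15 largest called rises and falls without overlap, the 10 largest called differences between the responses in each direction, up to 4 called members of each list with the smallest adjusted p, and a fixed set of pathway genes. Skil, Bambi, Snai2, Lefty1, Adam12, Tgfb3, Fibp, Ctla2b, Col12a1, Col4a2, Col4a5, Col4a6, Col6a1, Col6a2, Col18a1, Dcn, Prelp, Plod2, Tagln, Tpm2, Dusp1, Pdgfra, Grem1, Atf4, Asns, Igfbp3, Ddit4, Herpud1, Mtor and Nme7 fall outside it and were chosen after their values were seen. A gene that the rule selects is not reported here. Alternatives were other pseudocounts, filters, scalings and variance models, the replicate block and each replicate left out. The other compounds' samples entered the fit's estimate of the spread and are otherwise not analysed here.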

Additional observations from a re-analysis of the deposited data

Results flagged for a closer look

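The change with TGFb differed between SR9011-treated and vehicle-treated cells for 3607 of the 11297 genes by limma's test of the difference itself, at an adjusted p under 0.05. The genes whose difference is given above are listed with it, as the SR9011 response minus the vehicle response on the log2(FPKM + 1) scale. A more positive response with SR9011 was found for Angptl7 3.15, Mgp 2.45, Tnnt2 2.05, Nrep 1.89, Fam180a 1.83, Cacna1g 1.79, Serpind1 1.74, Atp1b1 1.73, Ctla2a 1.73, Mmp3 1.64, Thbs1 1.60, Cygb 1.49, Eln 1.48, Lox 1.35, Cxcl12 1.27, Tgfb3 1.15, Ccn2 1.11, Calr 0.92, Egr1 0.83 and Col1a1 0.73. A more negative response with SR9011 was found for Cdsn -1.87, Trib3 -1.75, Fgf21 -1.73, Lhfpl2 -1.66, Il1rl1 -1.65, Avil -1.63, Angptl6 -1.58, Car6 -1.54, Ppp1r15a -1.50, Loxl4 -1.44, Mfap4 -1.24, Abcc4 -1.18, Asns -1.10, Ddit3 -1.10, Runx1 -0.87 and Nr1d1 -0.51. The value of Mfap4 was not called with a pseudocount of 0.1. For Mfap4 and Il1rl1 the ratios of mean FPKM went the other way, at 40.1 and 16.4 with SR9011 and 30.1 and 12.1 without it.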

How the results depend on the processing

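The counts of called genes stayed within 1.5 times their reported values under every alternative run. Among the genes named by the rule, no response in SR9011-treated cells turned its direction except that of Tgfbr1. Tgfbr1 was not called and ranged from -0.042 without SR9011 replicate 1 to 0.23 without SR9011 replicate 2. Values of the named genes outside the rule were not followed under the alternatives. Leaving out 1 replicate at a time gave 4325 to 5368 called genes for SR9011+TGFb against SR9011 and 2961 to 4111 for the difference of the responses. With a pseudocount of 0.1 the difference of the responses turned to 0.50 for Postn, 0.43 for Crispld2 and 0.13 for Mmp13, so no direction is given for these 3 genes. The slope on the vehicle response was 0.702 with a pseudocount of 0.5 and 0.749 with a filter of 5 FPKM, and 0.699 to 0.740 with 1 replicate left out. The cause was not tested. The replicate block gave 5220 called genes (1627 higher and 3593 lower) and 3744 differences. In the labels same-numbered samples share only a number, and the block ended no call of a gene named by the rule. Of 250 values tested for genes named by the rule, at most 13 lost their call under any 1 alternative, with a weight per group and without SR9011+TGFb replicate 1.

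Among the gene lists, falls in the integrated stress response list came to 7 with TPM, falls of interferon genes to 11 with a weight per group, and in the fit of the 6 libraries alone the higher and lower calls to 4 and 5 for proliferation, 4 and 1 for cholesterol and fatty acid synthesis and 0 and 2 for the respiratory chain. With 3 libraries per group, unknown depth and a replicate 1 of SR9011 that stood apart, small changes are the least certain.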
